A study of Homo sapiens with 9 samples.

Results

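Binding of FAM120A was measured in K562 cells, an erythroleukemic line established from a patient with chronic myelogenous leukemia, as 1 of 10 RNA-binding proteins (RBPs) profiled together by antibody-barcode eCLIP (ABC). In 10plex ABC, UV-crosslinked cells are lysed, 10 antibodies that each carry their own DNA barcode are added to the same lysate, and the barcode ligated to an RNA fragment tells which antibody held it. The experiment was done in 3 replicates with no treatment or genetic change named in the labels, which do not say whether the replicates came from separate cultures. A p-value here sets FAM120A against the libraries of the other RBPs within these pools. It does not measure the spread between cultures. The labels of replicates 1 and 2 name the cell line K562, and those of replicate 3 write K563 beside a title with K562. The FAM120A libraries were identified by the protein named with each deposited list, and the comparison was with the libraries of DDX3, EIF3G, IGF2BP2, LIN28B, PRPF8, PUM2, RBFOX2, SF3B4 and ZC3H11A from the same pools. FAM120A had 50682, 79886 and 45702 merged peaks in replicates 1 to 3, or 176270 of the 748856 merged peaks of the 30 libraries. A peak is a stretch where reads pile up above their surroundings, and it was called enriched where its reads exceeded the complement control (CC), which sums the other 9 barcodes of the pool, with P below 0.001 and a fold above 8.

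FAM120A, also called Ossa, is a cytoplasmic RBP that is known as an activator of SRC family kinases under oxidative stress. The 3′ untranslated region (3′ UTR) of an mRNA follows the stop codon and holds sites for proteins and microRNAs that act on the stability, location and translation of the message. CLIP maps where a protein touches RNA, and does not show what the contact does to the RNA.

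FAM120A was the deepest library of each pool. The reads of its merged peaks summed to 938977, 2190890 and 856760, where the next library had 509073 (PRPF8), 655111 (RBFOX2) and 798386 (PRPF8), and PUM2 had the fewest with 13351, 17987 and 19428. Reads in touching peaks were counted in each of them. All 10 markers of K562 cells that were looked for, such as the fetal and embryonic globins HBG1, HBG2, HBE1 and HBZ and the erythroid factors GATA1, TAL1 and KLF1, had a peak in their exons in every FAM120A library.

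Sites enriched in all 3 replicates were ranked by their mean fold over the CC, which does not measure how often FAM120A touched them. The 10 sites in 3′ UTRs with the highest mean fold, 1 per gene, are given here as 30 nt of the transcript strand of GRCh38, with the stretch that lies inside the peak in all 3 replicates in capitals.
POU2F1: TACATCTGAATAACAGAGCAGAAAGACCTA
DDX6: cagtatttgttttCAGaatgagatgggagc
TULP4: TTTAGTTAAAAAATTGGAAAAGAAACCGAC
FAM76B: TTAATATTAGCTAACATTAAAATGGAAGGT
FKBP5: agctgattttgcttActtgctaaactgttg
SORT1: AATGTAGCTACTGTGCGGGTCACAGTTTCt
SPCS2: ATTTTAGTCTATTCTGGGTAAATAGGATTT
HNRNPD: ATGTATTGTGCTTTTTAGAACAAATCTGGA
B4GALT1: cagactatccattCCCcagcatgaatgtgc
SREK1IP1: gatgttggcatTTCTAAGtaaatttcccat

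The stretches lie in POU2F1 (chr1:167419539-167419568, plus strand), which encodes the transcription factor OCT1, and in DDX6 (chr11:118748890-118748919, minus strand), an RNA helicase of P-bodies that activates decapping. Those of TULP4 (chr6:158508364-158508393, plus strand) and FAM76B (chr11:95769481-95769510, minus strand) follow in the order of fold. FKBP5 (chr6:35574035-35574064, minus strand) encodes a co-chaperone of steroid receptors, and SORT1 (chr1:109312612-109312641, minus strand) the sorting receptor sortilin. SPCS2 (chr11:74977171-74977200, plus strand) encodes a subunit of the signal peptidase, and HNRNPD (chr4:82353514-82353543, minus strand) the AU-rich element binding protein AUF1. B4GALT1 (chr9:33111988-33112017, minus strand) encodes a galactosyltransferase of the Golgi, and SREK1IP1 (chr5:64722173-64722202, minus strand) closes the group.

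The DDX6 site had 3262, 7775 and 3956 FAM120A reads against 67, 261 and 142 CC reads, which is a log2 fold of 6.82, 5.68 and 6.38. It lay 3202 nt after the stop codon of a 3′ UTR of 4345 nt. The POU2F1 site had 38, 70 and 44 reads against 1, 1 and 2 CC reads (log2 fold 6.46, 6.91 and 6.04), and the FKBP5 site 150, 1094 and 898 reads against 3, 37 and 46 (6.85, 5.67 and 5.87). The DDX6 and FKBP5 sites thus rested on far more reads than the POU2F1 site. Over all enriched FAM120A peaks, 32.5%, 23.3% and 10.9% had a CC of 0 or 1 read in replicates 1 to 3. At such peaks the fold follows the FAM120A reads over a CC counted as 1 read. The mean log2 fold of the 10 sites ran from 5.998 (SREK1IP1) to 6.47 (POU2F1), and their SDs over the replicates, from 0.24 (SORT1) to 1.60 (SPCS2), were larger than the distance between neighbours in this order, so that the order among them was not resolved.

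FAM120A had 8285, 12230 and 7431 enriched peaks, a mean of 9315 ± 2560 (SD, n = 3), which was 20.4%, 19.0% and 16.2% of the 40528, 64322 and 45748 peaks that had a CC value. The CC lists were merged apart from the other lists, and those of replicates 1 and 2 leave out repeats. Only PRPF8, a core protein of the spliceosome, had more (mean 12202). The enriched FAM120A peaks had a median width of 54, 52 and 52 nt, a median of 21, 35 and 21 reads and a median log2 fold over the CC of 4.21, 3.99 and 3.802. Of the peaks of replicate 1, 64.9% overlapped an enriched peak of replicate 2 (95% Clopper-Pearson interval 63.9% to 65.9%) and 45.2% one of replicate 3 (44.1% to 46.3%). Averaged over the other replicates, 55.1%, 45.1% and 56.2% of the enriched peaks of replicates 1 to 3 were found again (52.1% ± 6.07, SD, n = 3), lowest in the deepest replicate. The intervals cover counting error only. Of the 7431 enriched peaks of replicate 3, 1465 overlapped merged peaks of replicates 1 or 2 that the CC lists leave out. Shares that involve replicate 3 thus compare unlike sets of peaks.

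Nearly all enriched FAM120A peaks lay in 3′ UTRs. Their share was 95.2%, 94.2% and 93.7% in replicates 1 to 3 (94.4% ± 0.78, SD, n = 3), against a mean of 16.8% over the other 9 RBPs (exact permutation test within replicates, two-sided, p = 0.001, the smallest that its 1000 choices allow). The next RBPs were IGF2BP2, an mRNA-stabilizing protein, with a mean of 51.5%, and PUM2, a repressor that binds the Pumilio motif, with 41.6%, and no other library passed 63.8%. The FAM120A values thus did not overlap those of any other RBP. Among all listed FAM120A peaks, enriched or not, 50.7%, 49.6% and 55.9% lay in 3′ UTRs. When enrichment was taken over the external background and not the CC, the share of enriched peaks was 75.7% against 16.8%. The test draws libraries as if the 3 of an RBP were independent, so that an RBP far above the other 9 in every replicate gets this p, and the rank of FAM120A, 1 of 10, is the plainer statement.

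**Figure D1:**
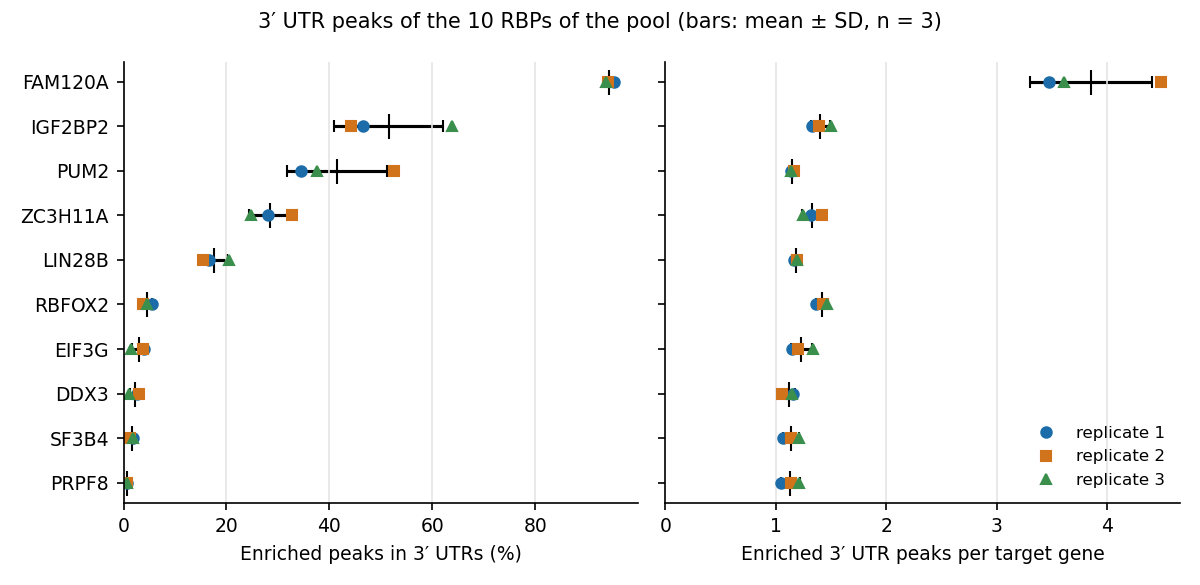
Share of enriched peaks that lie in 3′ UTRs (left, percent) and enriched 3′ UTR peaks per gene that has at least 1 (right), for each of the 10 RBPs; each symbol is the library of 1 replicate and the bars give mean ± SD (n = 3). FAM120A lies at 93.7% to 95.2% and at 3.47 to 4.48 peaks per gene, above every other library in both panels.

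The few enriched peaks outside 3′ UTRs were in distal introns (2.14% ± 0.587, SD, n = 3), coding sequence (1.19% ± 0.273) and noncoding exons (0.786% ± 0.119), with 0.224% ± 0.0733 in 5′ UTRs. The other 9 RBPs had means of 11.3%, 40.9%, 2.17% and 11.8% in these regions. Of the sites enriched in all 3 replicates, 3155 lay in 3′ UTRs and 90 elsewhere, 34 of them in distal introns and 18 in coding sequence. The strongest site outside 3′ UTRs by mean fold lay in a distal intron of RBM15, a gene for an RNA-binding partner of the m6A writer complex (chr1:110343656-110343689, plus strand). It had 140, 252 and 124 reads against 5, 7 and 9 CC reads (log2 fold 6.02, 5.95 and 5.36). A site in the coding sequence of MCUR1, a regulator of mitochondrial calcium uptake (chr6:13788645-13788705, minus strand), had 228, 487 and 189 reads against 11, 22 and 16 (log2 fold 5.58, 5.25 and 5.14). A site in ZCCHC7, which encodes a protein of the nuclear RNA surveillance complex TRAMP, rested on 9, 32 and 28 reads, and the remaining pair of sites chosen by the same rule lay in the unnamed noncoding genes ENSG00000286980 and ENSG00000289106.

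Enriched 3′ UTR peaks were found in 2274, 2570 and 1930 protein-coding genes in replicates 1 to 3. Of the 3084 genes hit in any replicate, 1498 were hit in all 3, 694 in 2 and 892 in 1. The 1498 genes are called FAM120A targets here, and they were 25.7% of the 5838 protein-coding genes tested. A gene was tested if any of the 10 RBPs, FAM120A included, had a peak in its 3′ UTR in every replicate. Every target is thus among them by rule. Besides the targets, 3140 genes tested had FAM120A 3′ UTR peaks with a CC value in every replicate, so that this background leans on FAM120A itself. By the rule used for targets IGF2BP2 had 314 genes, LIN28B, a repressor of let-7 maturation, 293, and no other RBP more than 36. FAM120A shared 61 genes with IGF2BP2 (19.4% of the IGF2BP2 genes and 4.07% of the FAM120A genes) and 73 with LIN28B (24.9% and 4.87%). As the CC of each protein holds the reads of the other 9, a gene bound by several of them is harder to call for each, and the depth of the libraries differed as given above.

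Most targets carried more than 1 peak. The number of enriched 3′ UTR peaks per gene that had at least 1 was 3.47, 4.48 and 3.61 (3.85 ± 0.55, SD, n = 3), against a mean of 1.23 for the other 9 RBPs (exact permutation test, two-sided, p = 0.001, the smallest possible). RBFOX2, with 1.41, and IGF2BP2, with 1.40, came next, and the groups did not overlap. This measure rises with the number of peaks in a list. If as many FAM120A peaks are drawn as IGF2BP2 had in the same replicate (1356, 2032 and 1581), the expected number per gene is 1.47, 1.70 and 1.67, against 1.33, 1.39 and 1.49 for IGF2BP2. At equal numbers of peaks FAM120A was thus above IGF2BP2 in each replicate by a much smaller distance, for which no test was run. RBFOX2 reached 1.36, 1.42 and 1.46 per gene with only 144, 208 and 152 enriched 3′ UTR peaks. FAM120A was not drawn at these lower numbers, so that its first rank is not separated from the length of its list.

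Over the 1498 targets the median was 3.67 peaks per gene, as the mean of the replicates. There were 240 targets with a mean below 2, 679 from 2 to below 5, 422 from 5 to below 10, 136 from 10 to below 20 and 21 with 20 or more. The tenth of the genes with the most peaks held 32.7%, 34.9% and 34.3% of all enriched 3′ UTR peaks in replicates 1 to 3, while 34.3%, 28.9% and 36.5% of the genes had a single peak. By peak counts binding was thus spread over many genes, with a tail of heavily covered ones. Reads were more concentrated on few genes. The 20 genes with the most reads held 21.3%, 21.7% and 18.0% of the reads of FAM120A 3′ UTR peaks in replicates 1 to 3.

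DDX6 had the most enriched peaks, with 41, 52 and 41 in replicates 1 to 3 (44.7 ± 6.35, SD, n = 3). These covered 983, 1111 and 1075 nt, or 22.0%, 24.9% and 24.1% of the 4461 nt annotated as 3′ UTR of the gene. On average they were thus narrower than the median enriched FAM120A peak (54, 52 and 52 nt). Peaks that touch were counted apart, so that the number is not one of separate sites. The enriched peak nearest to the stop codon was centred 1107, 1081 and 800 nt after it. Summed over all FAM120A peaks in this 3′ UTR, 44828, 120757 and 32813 reads gave a gene-level log2 fold over the CC of 5.67, 5.16 and 5.50 (5.44 ± 0.26, SD, n = 3). The other 9 RBPs together had 1, 7 and 0 enriched peaks there. Their CC holds these FAM120A reads, which makes such calls rare in advance. The count thus does not show how much they bound there. SCD, which encodes the stearoyl-CoA desaturase that makes monounsaturated fatty acids, followed with 37, 39 and 48 peaks (41.3 ± 5.86). Its peaks covered 30.8%, 32.3% and 41.0% of 3896 nt, at a lower gene-level log2 fold of 4.03, 3.92 and 3.70 (3.88 ± 0.17). The peak counts of DDX6 and SCD overlapped between replicates, and their gene-level folds did not.

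**Figure D2:**
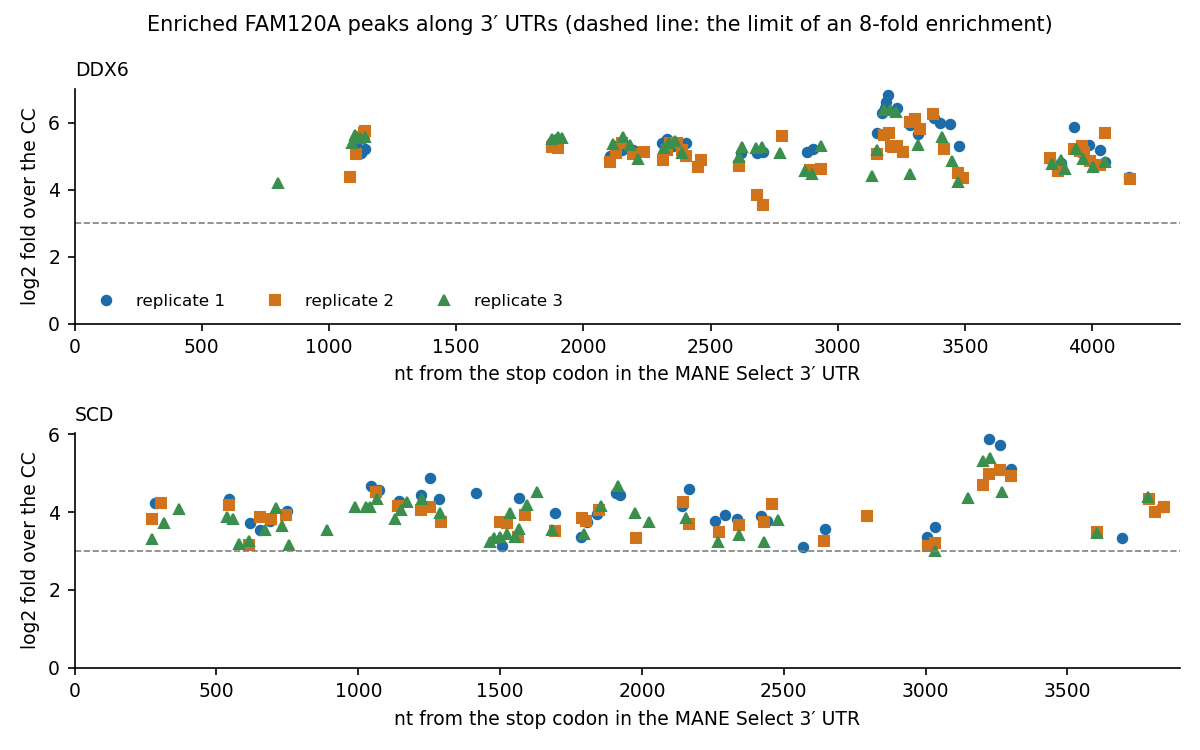
Enriched FAM120A peaks along the 3′ UTRs of DDX6 (top) and SCD (bottom): distance of the peak's centre from the stop codon in nt against the log2 fold of the peak over the CC, 1 symbol per peak and replicate, with the limit of an 8-fold enrichment dashed. Over the 3 replicates the peaks span 800 to 4150 nt in DDX6 and 271 to 3839 nt in SCD, and the highest fold of each replicate lies beyond 3000 nt in both.

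The DDX6 peak of highest fold in each replicate lay 3198, 3376 and 3183 nt from the stop codon, with a log2 fold of 6.82, 6.26 and 6.38. In SCD it lay at 3224, 3262 and 3226 nt, with 5.88, 5.07 and 5.38. In both mRNAs the highest fold over the CC was thus in the distal part of the 3′ UTR. It need not mark the most reads. In replicate 2 the DDX6 peak of highest fold had 534 reads, and the DDX6 site given above had 7775.

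IGF2BP1, an oncofetal mRNA-binding protein of the same family as IGF2BP2, had 19, 38 and 27 peaks, and AGO2, the Argonaute protein that carries microRNAs, had 25, 33 and 23. MKLN1, which encodes the muskelin subunit of the CTLH ubiquitin ligase, had 25, 33 and 22, and PTBP3, a splicing repressor of the polypyrimidine tract, had 20, 36 and 22. The cell-cycle kinase CDK6 had 22, 32 and 21, the kinase UHMK1 20, 33 and 22, and RO60, which binds misfolded RNA and Y RNA, 20, 29 and 25. Replicate 2, the deepest, had the most peaks in each of these genes. The splicing factor SRSF1 had 18, 23 and 32, and QKI, an RBP of splicing and mRNA stability, had 14, 33 and 24. The remaining 9 of the 20 genes with the most peaks had means of 20.7 (TMOD3, which caps actin filaments) to 23.7 (SPCS3, a signal peptidase subunit). ACTR2, a subunit of the Arp2/3 complex, had 22.7, and WASF2, which activates Arp2/3, had 21.3. MOB1B, a coactivator of Hippo pathway kinases, had 22.0, BPNT2, a phosphatase of the Golgi, and CALU, a calcium-binding protein of the secretory pathway, had 21.7 each, and MARCHF6, a ubiquitin ligase of the endoplasmic reticulum, had 21.

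The gene-level log2 folds of these 20 genes ran from 3.38 ± 0.24 (WASF2) to 5.44 ± 0.26 (DDX6), with ACTR2 next at 4.56 ± 0.45 (SD, n = 3). DDX6 stood clear of the others in every replicate. Over the 1498 targets the median gene-level log2 fold was 3.41, where it was 2.13 over the 3140 other genes tested that had such a fold. Targets were called by the fold of their peaks over the same CC, so that a higher median follows from the rule. The SD over the replicates had a median of 0.43 and was above 1 for 142 targets.

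**Figure D3:**
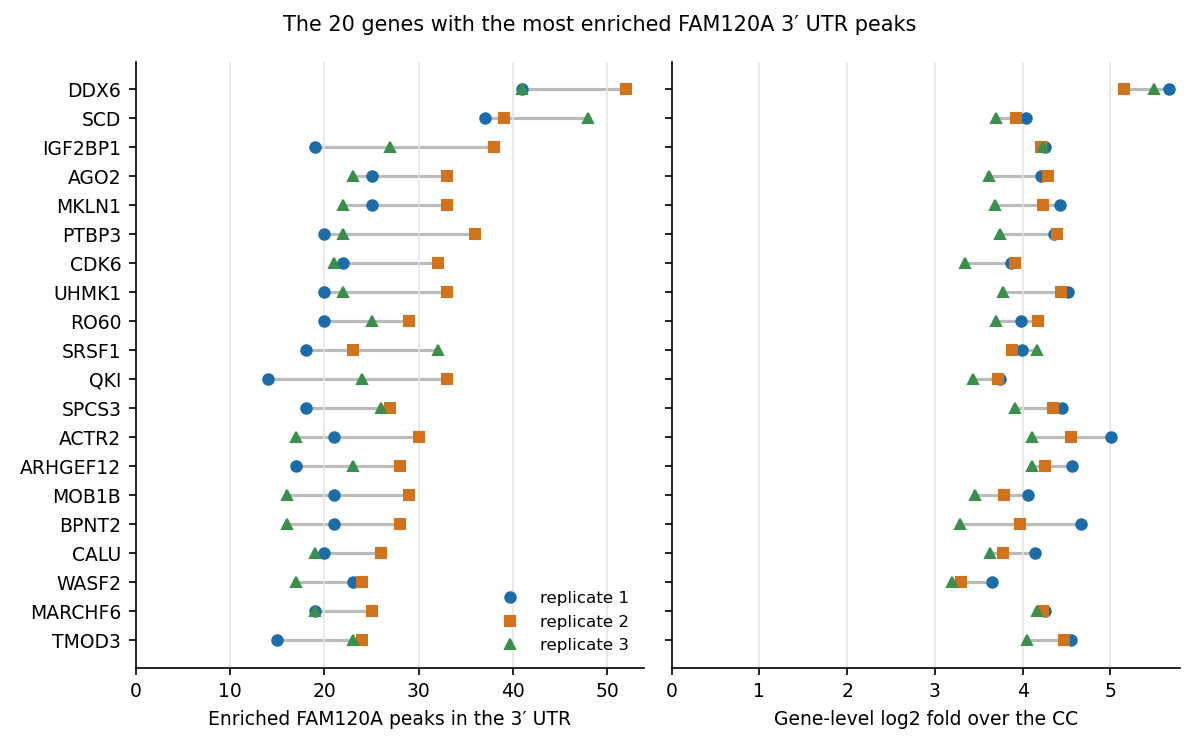
The 20 genes with the most enriched FAM120A peaks in the 3′ UTR: number of enriched peaks (left) and gene-level log2 fold over the CC (right), 1 symbol per replicate joined by a grey line. DDX6 and SCD lie at 37 to 52 peaks, and the fold of DDX6, 5.16 to 5.67, is above that of all other genes shown.

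Longer 3′ UTRs were called more often. Of the genes tested with under 500 nt of annotated 3′ UTR, 0.29% were targets (1 of 345), and the share was 9.47% from 500 to below 1000 nt, 17.7% from 1000 to below 2000 nt, 30.2% from 2000 to below 4000 nt and 41.1% from 4000 nt (622 of 1513). The median length was 3460 nt over the targets and 2013 nt over the other genes tested. Per kb the order turned, and the targets had a median of 2.88 peaks per kb from 500 to below 1000 nt and of 0.752 from 4000 nt. Each call needs at least 1 peak in every replicate, which sets a higher floor on the density of short targets than on that of long ones.

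The 5 densest targets with at least 5 peaks in each replicate were CCNI, KDELR1, SCD, DDX6 and EIF5A. CCNI, which encodes cyclin I, had 7, 20 and 12 peaks in 1067 nt (12.2 per kb). KDELR1, the receptor that returns proteins to the endoplasmic reticulum, had 8, 11 and 6 in 721 nt (11.6 per kb), and EIF5A, a translation factor that carries hypusine, had 6 in each replicate in 656 nt (9.15 per kb). SCD and DDX6 had 10.6 and 10.0 per kb. This order rests on the length used. With the 3′ UTR of the MANE Select transcript alone in the denominator, the 5 densest were SYNCRIP (17.9 per kb), CCNI (12.2), RBMX (12.2), ACTB (11.6) and KDELR1 (11.6), with 603 to 1067 nt each, and SCD, DDX6 and EIF5A were not among them.

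FAM120A also contacted its own mRNA, on chromosome 9 from 93451685 to 93566112, plus strand, with 4, 5 and 1 enriched 3′ UTR peaks and a gene-level log2 fold of 3.13, 3.06 and 2.86. Its paralog FAM120B had no enriched peak in any replicate, and FAM120C was not among the genes tested. Of the 8 genes of the profiled RBPs that were tested, 4 were FAM120A targets (50.0%, against 25.7% of all genes), the others being DDX3X with 9, 11 and 7 peaks, LIN28B with 4, 10 and 3 and ZC3H11A with 2, 2 and 1.

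Targets were grouped by gene lists, each read against the 25.7% of all genes tested. For part of the lists the median 3′ UTR length of the tested genes is given, as longer 3′ UTRs were called more often. The list of hnRNP and SR proteins had the highest share. Of 31 tested hnRNP and SR proteins, the families that package pre-mRNA and select splice sites, 18 were targets (58.1%, median 3′ UTR 2250 nt). SRSF6 had 9, 14 and 8 peaks, HNRNPD 6, 9 and 7 and HNRNPU 4, 13 and 5, beside SRSF1 above. The median gene-level log2 fold of the list, 2.38, was below the 2.61 of all genes tested that had such a fold, although its share of targets was the highest.

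Of 27 genes of nuclear transport, 15 were targets (55.6%, median 3′ UTR 2483 nt). The median gene-level log2 fold was 2.94 over the 26 that had such a fold. The importins TNPO1 and IPO7 had 15, 14 and 14 and 10, 16 and 10 peaks. The exportin XPO7 had 11, 13 and 12 in 1500 nt (8 per kb), and the importin alpha KPNA4 had 6, 11 and 14. TNPO1 and XPO7 varied by no more than 2 peaks between replicates.

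Of 25 cyclins and cell-cycle kinases, 11 were targets (44%), at a median log2 fold of 3.13 over the 22 that had such a fold. The median 3′ UTR of the list was 1802 nt, which is shorter than that of the other genes tested. Beside CDK6, CCNY, a membrane-bound cyclin, had 9, 14 and 8 peaks, CDK2, the partner of cyclins E and A, 8, 11 and 9, and the G1 cyclin CCND2 9, 11 and 2. The gene-level log2 fold of CDK2, 4.42, 4.37 and 4.47, was the steadiest of these.

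Genes that act on mRNA decay and silencing were targets in 7 of 16 cases for the CCR4-NOT complex and deadenylation (43.8%), 4 of 10 for the microRNA machinery (40%), 5 of 14 for decapping and P-bodies (35.7%) and 3 of 12 for nonsense-mediated decay and the exosome (25.0%). The catalytic deadenylases CNOT6L and CNOT7 had 6, 16 and 5 and 9, 10 and 7 peaks. The decapping enzyme DCP2 had 11, 15 and 5, and LSM14B 5, 6 and 4. AGO1 had 9, 10 and 5, DICER1, which cuts microRNA precursors, 4, 5 and 2, and TNRC6B, a silencing partner of Argonaute, 1, 1 and 3 in a 3′ UTR of 13139 nt. The microRNA machinery had the longest 3′ UTRs of these lists, with a median of 4946 nt.

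In the IGF and oncofetal list 4 of 9 genes were targets (44.4%), and IGF2BP3 had 6, 7 and 6 peaks and IRS2, an adaptor of the insulin and IGF receptors, 4, 2 and 1. The gene-level log2 fold of IRS2, 6.88, 3.17 and 3.26, was far higher in replicate 1 than in the others. Among SRC, PI3K and AKT signalling 5 of 17 were targets (29.4%), such as the SRC family kinases YES1 with 4, 12 and 2 peaks and LYN with 3, 2 and 1. PIK3CA, the catalytic subunit of PI3K, had 1, 6 and 3. Among oxidative stress genes it was 4 of 19 (21.1%), led by GCLM, a subunit of the enzyme that starts glutathione synthesis, with 15, 17 and 10 peaks. Its partner GCLC had 2, 3 and 1, the mitochondrial dismutase SOD2 5, 5 and 9 and TXNRD1 1 in each. The lists on SRC signalling and on oxidative stress, which touch the known roles of FAM120A, were thus near the background or below it. Their median 3′ UTRs were 3044 and 1457 nt. Of 22 genes of RAS and MAPK signalling 7 were targets (31.8%), with NRAS at 12, 16 and 7 peaks, NF1 at 8, 10 and 8 and GRB2 at 9, 8 and 7.

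Ubiquitin ligases of the cullin-RING and other types were targets in 12 of 30 cases (40%, median 3′ UTR 3474.5 nt). For ubiquitin-conjugating enzymes it was 9 of 24 (37.5%, median 3′ UTR 2229 nt). CUL5 had 6, 10 and 8 peaks, XIAP, an inhibitor of caspases, 6, 7 and 5, and UBE2K 16, 23 and 9. Of the proteasome itself, 1 of 14 tested genes was a target (7.14%, median 3′ UTR 1218 nt), namely PSMC2 with 2, 6 and 1 peaks. Kinesins, the motor proteins of microtubules, were targets in 7 of 19 cases (36.8%), led by KIF2A with 11, 15 and 10 peaks, RAB GTPases of vesicle traffic in 9 of 28 (32.1%) and translation initiation factors in 9 of 29 (31.0%). Among the last, EIF2S3, a subunit of eIF2, had 11, 13 and 14, EIF4B 9, 13 and 9 and EIF5 10 in each replicate.

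Solute carriers were targets in 33 of 110 cases (30.0%), where SLC7A11, the cystine importer, had 21, 22 and 13 peaks and SLC38A2, an importer of neutral amino acids, had 13, 22 and 17. Of the sterol and lipid list 5 of 18 were targets (27.8%), with HMGCS1, which starts the mevalonate pathway, at 5, 12 and 6 and SREBF2, the master regulator of sterol synthesis, at 9, 5 and 5. SCD stood in this list although it makes fatty acids and no sterols. Aminoacyl-tRNA synthetases (3 of 11, with WARS1 at 8, 14 and 9 peaks), actin and tubulin genes (4 of 15, with ACTB at 7, 9 and 5) and chromatin remodelling and Polycomb genes (9 of 36, with CBX5 at 8, 17 and 8) were close to the background.

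Below the background were ribosomal proteins (4 of 22, 18.2%), heat shock proteins and chaperones (5 of 29, 17.2%), zinc finger genes named ZNF (20 of 118, 16.9%), erythroid genes (2 of 13, 15.4%) and the nuclear-encoded respiratory chain (4 of 41, 9.76%). The erythroid targets were the transferrin receptor TFRC, with 9, 2 and 10 peaks, and the transcription factor TAL1, with 4, 2 and 3. In the respiratory chain SDHD had 4, 4 and 3 peaks and NDUFS1 2, 2 and 6, and 32 of the 41 tested genes had no enriched peak in any replicate. The tested genes of the erythroid, heat shock and respiratory lists had median 3′ UTRs of 563, 1612 and 1679 nt. These were shorter than the 2013 nt of the genes tested that were no targets. ZNF genes and ribosomal proteins had longer ones (3290.5 and 3302 nt). The lists were not tested, and the part of 3′ UTR length and expression in these counts was not tested either.

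**Figure D4:**
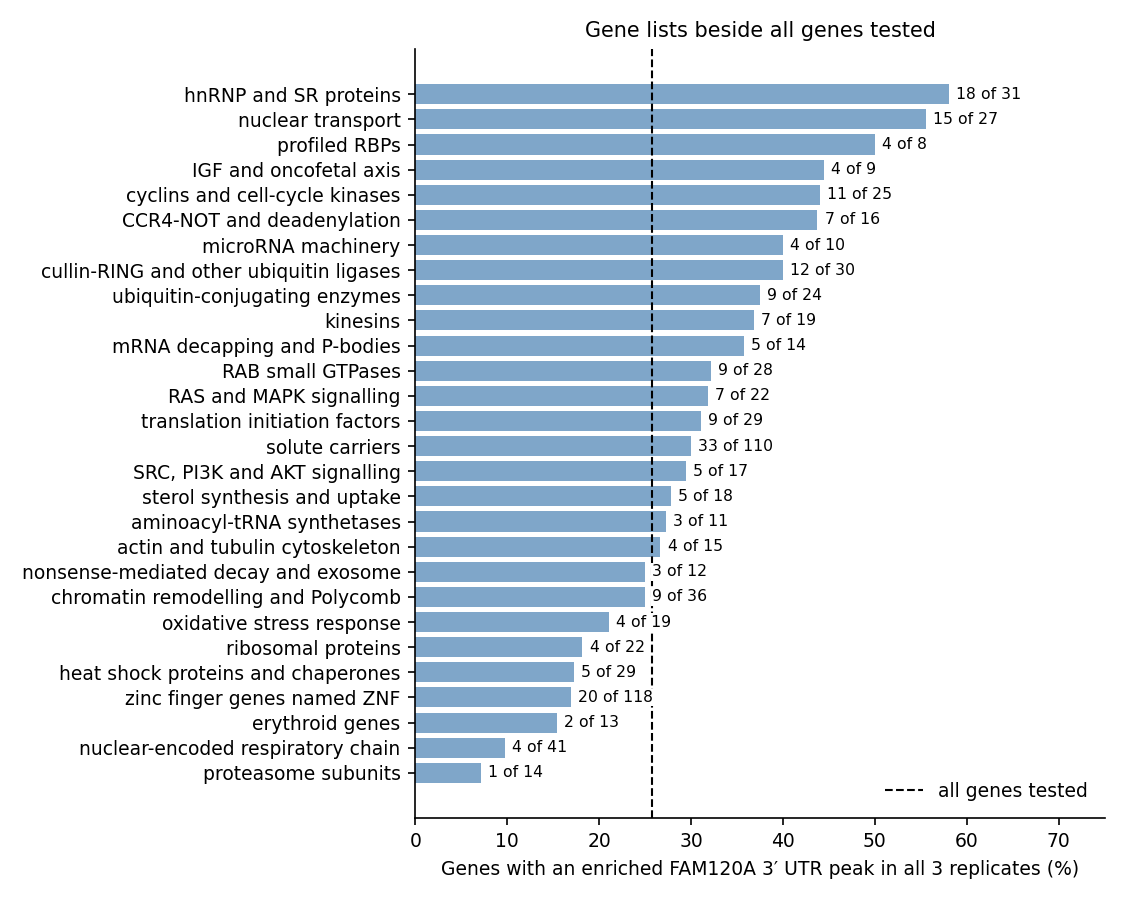
Percent of the tested genes of each list that had an enriched FAM120A 3′ UTR peak in all 3 replicates, with the number of targets and of tested genes beside each bar; the dashed line is the share over all genes tested, 25.7%. Lists with at least 8 tested genes are shown, from 1 of 14 proteasome subunits to 18 of 31 hnRNP and SR proteins.

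Peaks lay along the body of the 3′ UTR. With 0 at the stop codon and 1 at the transcript end, the median position was 0.424, 0.430 and 0.429 (0.428 ± 0.00347, SD, n = 3), against a mean of 0.420 over the other 9 RBPs, and FAM120A ranked 5 of 10. The exact permutation test gave p = 0.865 (two-sided), which does not show that the positions were alike, as the means of the other RBPs ran from 0.286 (PRPF8) to 0.490 (ZC3H11A). With the 3′ UTR cut into 5 equal stretches from the stop codon, the FAM120A peaks fell to 19.9%, 26.5%, 23.3%, 19.2% and 11.2%, each with an SD of at most 1.03. Within 100 nt of the stop codon lay 0.717% ± 0.184 of them, and within 100 nt of the end 1.03% ± 0.2004. For IGF2BP2 28.9%, 28.5% and 29.4% of the peaks lay in the stretch next to the stop codon and 11.8%, 9.25% and 5.31% within 100 nt of the stop codon, above FAM120A in every replicate. FAM120A peaks were thus scarce next to both ends. Their median distance from the stop codon was 1259 nt, against 540.5, 572 and 580 nt for IGF2BP2. A window of 100 nt is thus not the same part of a 3′ UTR for both. In the last stretch LIN28B had a share near that of FAM120A, with 11.6%, 12.1% and 12.7%.

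Base composition in the peaks was 30.3% A, 29.0% T, 20.4% G and 20.2% C on the transcript strand, with T for U. The GC content was 40.9%, 39.4% and 41.6% (40.7% ± 1.11, SD, n = 3), against a mean of 48.0% over the other 9 RBPs (exact permutation test, two-sided, p = 0.064). The value of FAM120A was the second lowest after that of PUM2, 37.2%. A was 4.66 percentage points above the other 9 (p = 0.027, 0.108 with Benjamini-Hochberg adjustment over the 4 bases by the exact permutation test), second to PUM2, and no base passed the threshold of 0.05. Windows of 100 nt around the peak centres had a mean minimum free energy of folding of −16.9, −16.5 and −17.4 kcal/mol (−16.9 ± 0.49), against −22.7 over the other 9, with a two-sided p of 0.052 in the exact permutation test. FAM120A ranked 3 of 10, and PUM2 (−15.8 kcal/mol) and IGF2BP2 (−16.4 kcal/mol) had weaker predicted folding still. None of these differences passed the test, and those of GC, A, C and folding energy passed under some other settings.

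Within the same 3′ UTRs the peaks were compared with windows of the same length 200 nt away that held no FAM120A peak, without a test. In the peaks T was lower (28.9% ± 1.48 against 33.5% ± 0.27, SD, n = 3), A higher (30.7% ± 1.39 against 28.3% ± 0.43) and C higher (20.2% ± 1.04 against 18.2% ± 0.11), in all 3 replicates each. The predicted energy was −16.6 ± 0.51 kcal/mol at the peaks and −18.7 ± 0.11 away from them, which is weaker folding at the peaks in each replicate. Along the sequence, T stood at 35.4% ± 0.63 from 40 to 31 nt before the centre and at 26.9% ± 1.65 from 0 to 9 nt after it. C rose from 17.02% ± 0.62 (50 to 41 nt before) to 21.4% ± 1.24 (10 to 1 nt before) and A from 28.1% ± 0.86 (30 to 21 nt before) to 32.5% ± 1.05 (10 to 19 nt after). A dip of T at the centre was seen in other RBPs too. In IGF2BP2 T went from 33.3%, 33.7% and 35.6% at 40 to 31 nt before the centre to 24.3%, 28.5% and 30.3% from 0 to 9 nt after it, and in ZC3H11A from 29.2%, 28.2% and 30.5% to 21.5%, 23.1% and 26%. The profile was thus not particular to FAM120A, and no test between RBPs was run on it.

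**Figure D5:**
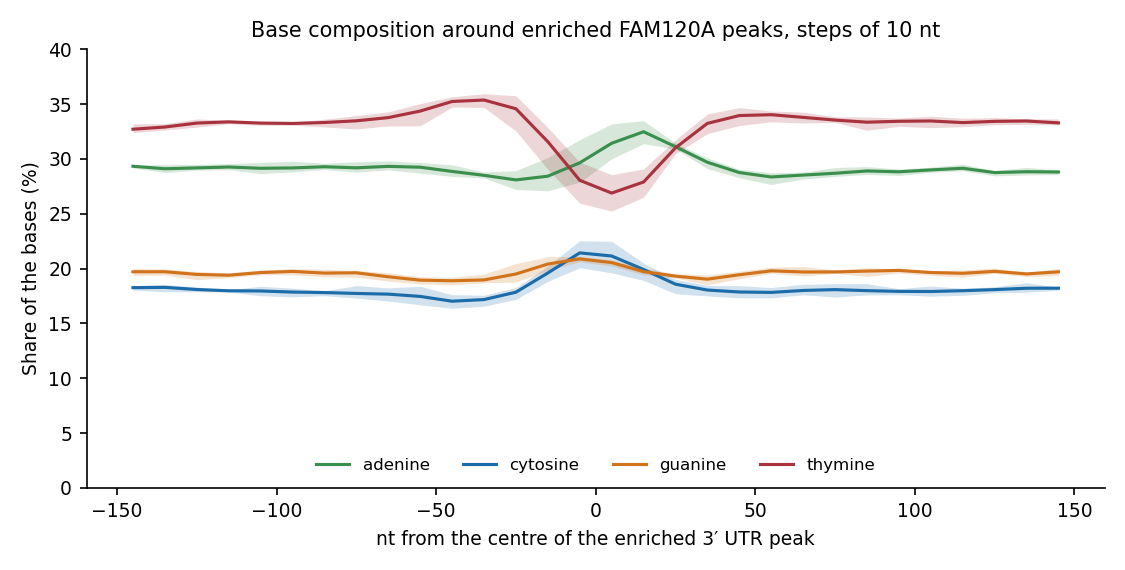
Share of each base (percent) on the transcript strand in steps of 10 nt around the centre of enriched FAM120A 3′ UTR peaks; lines are means of the 3 replicates and bands span the lowest to the highest replicate. Thymine falls from 35.4% upstream to 26.9% at the centre, while cytosine and adenine rise to 21.4% and 32.5%.

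Of 13 short motifs searched on the transcript strand in 100 nt around the centre, ATTTA, the core of AU-rich elements, was found in 23.6%, 25.6% and 23.5% of the windows (24.2% ± 1.21, SD, n = 3), against 12.9% over the other 9 RBPs. This passed the exact permutation test (two-sided, p = 0.001, Benjamini-Hochberg adjusted over the motifs 0.013), but PUM2 and IGF2BP2 followed with 21.5% and 19.1%, the highest other library reached 25.4%, and the call was lost under 6 of 13 other settings. In 3 of these a replicate was left out, where the smallest p the test allows is 0.01 before adjustment. As for the 3′ UTR share, the 3 libraries of an RBP were drawn as if independent. Away from the peaks in the same 3′ UTRs ATTTA stood in 22.0% ± 0.45 of the windows and at the peaks in 24.6% ± 1.23, a difference of 2.56 ± 1.21 percentage points. TTTTT was in 36.6% (adjusted p = 0.0953 by the exact permutation test) and GGAC in 15.8%, against 27.3% over the other 9 (adjusted p = 0.0845). The motif GGG stood in 53.0% of the windows, GGAGG in 11.6%, CACA in 31.0%, GCATG, the RBFOX motif, in 6.32%, AATAAA, the polyadenylation signal, in 10.2% and TGTANATA, the Pumilio motif, in 2.44% ± 0.303 against 39.7% for PUM2, with adjusted p-values from 0.787 to 0.970 in the exact permutation test. The same held for matches to the seeds of let-7 (CTACCTC, 0.459%), miR-17 (GCACTTT, 1.25%), miR-92a (GTGCAAT, 0.481%) and miR-21 (ATAAGCT, 0.521%), written as the letters searched, which were taken from the mature sequences in RefSeq.

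Runs of C were raised at the peaks, against windows away from them, by a larger ratio than any motif above. Among the 766 sequences of 5 bases found in at least 5% of the windows at or away from peaks, 241 were more frequent at the peaks in all 3 replicates and 307 less frequent. CCCCC was in 10.6%, 7.77% and 10.1% of the peak windows and in 4.04%, 2.96% and 3.43% of the windows 200 nt away, a ratio of 2.63 to 2.95. TCCCC followed with 15.7% against 6.37%, CCCCA with 15.8% against 7.10% and CCCCT with 14.5% against 6.12%, as means of the replicates. GGGGG also stood higher, with 8.07% against 4.503%. Lowest in proportion were GCTTG, with 5.70% against 8.46%, and GCTAC, with 3.55% against 5.35%. These sequences were ranked on the same peaks, so the ratios are a description with no test.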

How the data were processed

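The 3 K562 pools of 10 RBPs were used, and the members and gene lists were chosen with earlier results of these data known. The authors trimmed reads with cutadapt 2.8, mapped them to GRCh38 with STAR 2.7.6, removed duplicates by molecular identifier, called peaks with CLIPper and merged overlapping ones. The deposited lists give each peak a log2 fold and a −log10 P over an external background. Against the CC, the authors deposited a chi-squared score and its p-value in replicates 1 and 2, and a log2 fold with a −log10 P (at most 400) in replicate 3. From the deposited other columns only peak names and positions were used.

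Reads of a peak were recovered from its name or from the deposited fold, and CC reads of replicates 1 and 2 were solved from the chi-squared score, which whole reads met in 70.3% and 74.0% of the FAM120A peaks. A CC of 0 reads was taken as 1 in a fold. Where no number of CC reads met the score (138 and 50 enriched FAM120A peaks), the summed reads of the other 9 libraries' peaks were used, a choice made after seeing the data, and such sites were left out of the ranking of sites (28 in 3′ UTRs and 2 elsewhere). Enriched means P below 0.001 and a fold above 8. Reads of touching peaks, of paralogs and of overlapping genes cannot be separated, and PCR reads are not independent molecules.

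Regions follow GENCODE 44, which gave the same region as the authors' annotation of replicate 2 for 94.0% of its FAM120A peaks. Lengths and densities use all annotated 3′ UTR bases of a gene, chosen after MANE Select lengths gave SYNCRIP 17.9 peaks per kb with 783 nt in place of 7079, and positions use MANE Select. Named are the 20 targets with the most peaks, and the 10 and 5 sites of highest mean fold in and outside 3′ UTRs away from adapter-like sequence. Also named are up to 4 targets per list, the 5 densest targets with at least 5 peaks in each replicate, and the FAM120 family. CCCCC and the like were named by rank in the data.

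The exact permutation test draws 1 library in each replicate (1000 choices), since libraries with the same replicate number come from the same pool and are thereby paired. Folding used ViennaRNA 2.7.2 and tests used SciPy 1.17.1 with Python 3.11.15. Scripts were tested on simulated data. Seeds came from RefSeq mature sequences, and miR-451a was not analysed here.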

Additional observations from a re-analysis of the deposited data

How the results depend on the processing

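Of 334 values recomputed under 15 alternatives, 297 kept their direction and call or stayed within the spread. The 3′ UTR share (75.7% to 95.8%) and the peaks per gene (2.86 to 4.94) passed the test in all 12 alternatives run for each. With P below 1e-05 and a fold above 16 there were 3757 enriched peaks per library and 663 target genes, 42.9% of peaks were found again, the median position was 0.433, on the other side of the other RBPs, ATTTA stood in 26.0% of windows without passing, and the miR-21 match in 0.584%, its direction turned. With any fold above 1, 62.1% were found again, ATTTA stood at 22.1% without passing and miR-21 turned at 0.483%. Over the external background there were 25024 peaks and 3022 genes, 64.6% were found again, the GC content of 44.1% passed (exact permutation test, p = 0.022), TTTTT (31.6%) and GGAC (18.3%) passed (adjusted p = 0.0433 each, exact permutation test), and let-7 and miR-21 turned at 0.577% and 0.479%. With the region at the peak's centre the folding energy of −16.9 kcal/mol passed (p = 0.04, exact permutation test), GGAC (15.8%) passed (adjusted p = 0.0195), and let-7 and miR-21 turned at 0.463% and 0.520%. Over 50 nt on both sides of the centre the GC content of 38.5% passed (p = 0.022, exact permutation test), as did A at 29.7% and C at 18.9% (adjusted p = 0.042 each). In the peak alone GGAGG, CACA and miR-21 turned at 7.66%, 20.9% and 0.261%, and ATTTA stood at 12.5% without passing. An overlap of at least 50% of the peak left 45.7% found again. Without the repeats of replicate 3, added after seeing the data, the folding energy of −16.8 kcal/mol passed (p = 0.044, exact permutation test) and miR-21 turned at 0.535%. The cause of these changes was not tested.

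Leaving out each replicate in turn gave 7858 to 10258 peaks, 1588 to 1921 genes, a 3′ UTR share of 93.9% to 94.7%, 3.54 to 4.05 peaks per gene, a median position of 0.427 to 0.430, which turned without replicate 2 (0.427), a GC content of 40.2% to 41.3%, an energy of −17.2 to −16.7 kcal/mol and 48.3% to 57.2% found again. Without replicate 1, AATAAA turned at 9.74% (to 10.7% without the others) and miR-21 at 0.522% (0.504% to 0.538% over the 3). Without the replicate block, p was 0.000246 for the 3′ UTR share and the peaks per gene in the permutation test, the smallest possible, and the block changed no call. Leaving out peaks in soft-masked sequence was not run, as the genome used here holds no soft masking. FAM120A was the deepest library, and depth limits what the other 9 could show.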
